A study of Rattus norvegicus with 48 samples.

Results

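The genes of cholesterol synthesis and of its control by SREBP2 were followed in the liver of rats fed phenobarbital (PB), an anticonvulsant drug that induces liver enzymes of drug metabolism. The set holds 28 genes, listed by name for their role in the pathway, with earlier results of these data known: enzymes of the mevalonate and isoprenoid steps, enzymes from squalene to cholesterol, the proteins that sense sterols, and a few genes of sterol transport and storage. A probeset annotated to the gene alone was found for 26 of them, among 31099 probesets on the array, and 24 of these were listed on all 48 arrays. Hmgcs1 and Soat2 were not analysed here. The animals were male F344 rats, 9 weeks old per the methods of the study. The sodium salt of PB was mixed into the diet at 0, 50, 500 or 1000 ppm for 1, 3, 7 or 14 days, and left lateral liver lobe from 3 rats of each dose and day was hybridised, 1 Affymetrix array per rat. Controls ate the same diet without PB and were killed on the same days. Whole lobe tissue was used, so fewer cells of a type and less RNA per cell cannot be told apart. The description of each array opens with a date-like prefix, and arrays that share one are called a run here, although the labels do not say what the prefix marks. Same-day controls shared no run with the 1000 ppm arrays on days 1, 7 and 14. The same held for 500 ppm on days 3, 7 and 14 and for 50 ppm on days 3 and 14. Within those days dose and run cannot be told apart. For 7 arrays the title and the animal number name different groups. The animal number was followed, and counts under the other placing stand with the limits of the processing.

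Cholesterol is built from acetyl-CoA through mevalonate, which yields the isoprenoid units that are joined into farnesyl diphosphate and then squalene. Squalene is closed into lanosterol, and a chain of demethylases, reductases and isomerases turns lanosterol into cholesterol. The liver is a main site of this synthesis and exports the product in lipoproteins and bile. Transcription of the pathway is driven by SREBP2, a membrane protein of the endoplasmic reticulum. SCAP escorts SREBP2 to the Golgi apparatus for cleavage when sterols are low, and the INSIG proteins hold the pair back when sterols are high.

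Most of the pathway did not pass the threshold at any dose of PB, and 5 of the 24 members tested were called at 1000 ppm over the 4 days, beside 14.1% of all probesets. Of these 5, 4 were enzymes from squalene to cholesterol, one of which, Fdft1, lost its call in 7 of 11 alternatives. At 1000 ppm over the 4 days the sterol enzymes Msmo1, Sc5d and Dhcr7 rose by 0.45 ± 0.11, 0.34 ± 0.06 and 0.29 ± 0.07 on the log2 scale (SE, 12 rats against 12), while Insig1, which retains SREBP2 in the endoplasmic reticulum, fell by 0.46 ± 0.13. These 3 enzymes also passed at 500 ppm, where the call of Msmo1 was lost with the run as a block and without any 1 of 7 arrays. No member passed at 50 ppm. Called here means an adjusted p under 0.05 in limma, with Benjamini-Hochberg adjustment over all probesets tested in that comparison, and every fold change is against the controls of the same days.

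Of the 23 members with a RefSeq promoter, the windows of the 4 genes that stayed called at 1000 ppm over the 4 days in all 11 refits with other settings are shown, because these members carry the result. Each runs from 250 bases before the transcription start to 50 after it, 5′ to 3′ on the strand of the gene, in build GRCr8. Capitals mark a match on either strand to CCAAT, the box read by the factor NF-Y, or to GGGCGG, the GC box read by Sp1, both known as partners of SREBP at sterol-regulated promoters. The windows are chr16:29746863-29747162 (plus strand) for Msmo1, chr8:51538228-51538527 (minus strand) for Sc5d, chr1:208444184-208444483 (plus strand) for Dhcr7 and chr4:8057720-8058019 (minus strand) for Insig1.
Msmo1: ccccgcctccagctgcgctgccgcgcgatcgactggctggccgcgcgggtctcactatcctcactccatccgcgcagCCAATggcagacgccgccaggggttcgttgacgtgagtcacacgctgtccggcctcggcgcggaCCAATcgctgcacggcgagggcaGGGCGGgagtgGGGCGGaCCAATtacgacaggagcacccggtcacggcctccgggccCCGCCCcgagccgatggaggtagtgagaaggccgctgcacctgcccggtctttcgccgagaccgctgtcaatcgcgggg
Sc5d: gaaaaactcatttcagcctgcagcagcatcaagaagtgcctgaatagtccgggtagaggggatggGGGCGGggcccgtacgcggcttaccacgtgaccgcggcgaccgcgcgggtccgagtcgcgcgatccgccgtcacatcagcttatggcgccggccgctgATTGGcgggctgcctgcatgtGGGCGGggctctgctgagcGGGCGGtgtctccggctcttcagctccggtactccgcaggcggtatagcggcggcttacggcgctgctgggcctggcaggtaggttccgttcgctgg
Dhcr7: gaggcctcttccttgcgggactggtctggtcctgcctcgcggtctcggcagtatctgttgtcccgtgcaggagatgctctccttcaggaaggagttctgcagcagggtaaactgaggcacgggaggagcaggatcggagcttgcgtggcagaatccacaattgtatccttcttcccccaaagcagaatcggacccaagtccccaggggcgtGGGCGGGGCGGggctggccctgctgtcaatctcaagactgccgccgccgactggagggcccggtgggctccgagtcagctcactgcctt
Insig1: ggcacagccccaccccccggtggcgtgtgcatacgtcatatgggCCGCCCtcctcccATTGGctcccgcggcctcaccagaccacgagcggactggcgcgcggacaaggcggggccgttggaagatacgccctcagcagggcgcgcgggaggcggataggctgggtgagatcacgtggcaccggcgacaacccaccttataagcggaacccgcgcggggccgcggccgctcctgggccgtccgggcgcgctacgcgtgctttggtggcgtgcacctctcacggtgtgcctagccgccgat
The Msmo1 window held 3 CCAAT and 3 GC boxes, that of Sc5d held 1 and 3, that of Dhcr7 held 0 and 2, and that of Insig1 held 1 and 1. In Msmo1 the boxes lay between bases -173 and -24 from the start, and in Dhcr7 both GC boxes lay between -39 and -29 and overlapped by 1 base. Among the 23 members 19 windows held CCAAT and 17 held GGGCGG, against 37.5% and 33.1% of all 33469 promoter windows of this length. A sterol regulatory element was searched as TCACNCCAC on both strands, and 0 of the 23 windows and 1.12% of all windows held it. These are letter matches in a fixed window and describe neither binding nor its absence.

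Over the 4 days at 1000 ppm, 4 of the 24 members tested were higher and 1 was lower. Among all 12680 probesets tested, 7.11% were higher and 7.01% were lower, 14.1% in all. The median log2 fold change of the 24 members was 0.07, beside -0.01 for all probesets, and 18 members lay above 0. At 500 ppm 3 members were higher and 0 were lower (4.64% and 3.99% of all probesets, 8.64% in all), the median was 0.10 and 19 members lay above 0. At 50 ppm 0 of 24 were called (0.149% of all probesets in limma) and 0 had an unadjusted p under 0.05. The median there was 0.06 and 19 members lay above 0. The 3 doses share the same controls, so these medians and signs are not separate observations. Between 1000 and 500 ppm 0 members were called by limma (0% of all probesets), 0 at an unadjusted p under 0.05, and the 24 differences ran from -0.11 to 0.15 with 95% intervals that stayed between -0.38 and 0.32.

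**Figure D1:**
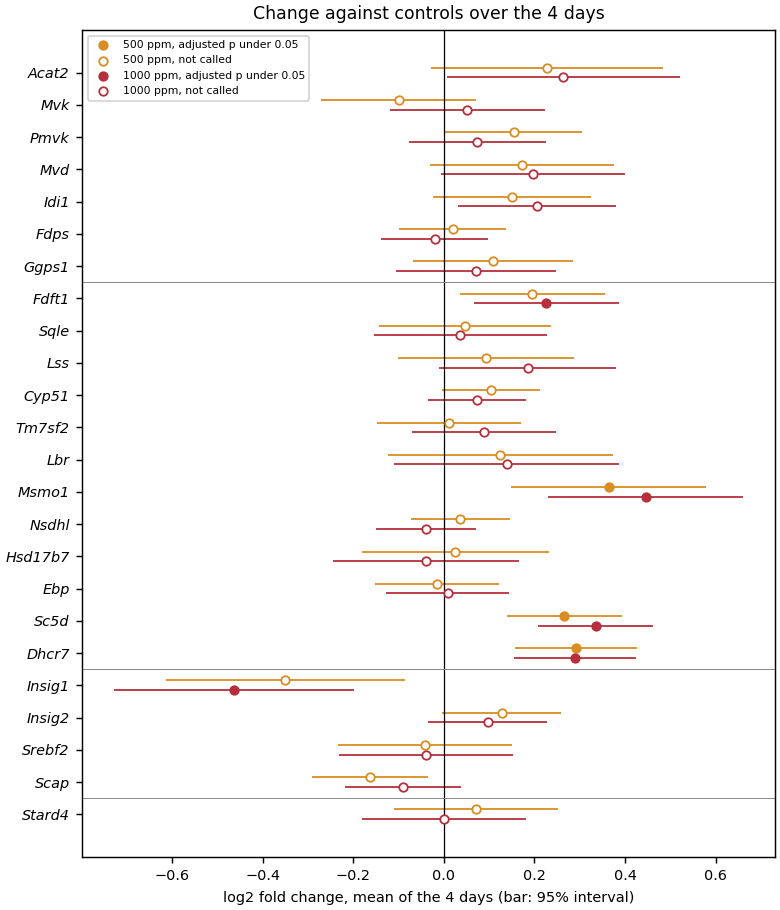
Log2 fold change of each of the 24 members at 500 ppm (orange) and 1000 ppm (red) against the controls, averaged over days 1, 3, 7 and 14, on the x axis, with 95% intervals from limma as bars and 12 rats per dose; grey lines part the mevalonate, sterol, sterol sensing and transport genes. Filled points are called: Msmo1, Sc5d and Dhcr7 at both doses, and Fdft1 and Insig1 at 1000 ppm alone.

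In the mevalonate and isoprenoid part of the pathway, 0 of 7 enzymes were called at 50, 500 or 1000 ppm over the 4 days in limma (0, 1 and 2 had an unadjusted p under 0.05). The largest value at 1000 ppm was that of Acat2, the cytosolic thiolase that makes acetoacetyl-CoA, at 0.26 ± 0.13 (adjusted p = 0.174). Its signal ran from 718 to 1326 (median 969) in the 12 controls and from 883 to 1477 (median 1181) at 1000 ppm, so the ranges overlapped over most of their length. Idi1, the isopentenyl diphosphate isomerase, had 0.20 ± 0.09 (adjusted p = 0.113), with signals from 3177 to 4712 (median 3702) in controls and from 3129.6 to 5092 (median 4339.6) at 1000 ppm. Mvd, the mevalonate diphosphate decarboxylase, had 0.20 ± 0.10. Mvk and Pmvk, the kinases that act before it, had 0.05 ± 0.08 and 0.07 ± 0.07. Fdps, which joins the units into farnesyl diphosphate, had the narrowest interval of the group, from -0.14 to 0.10 around a value of -0.02. Its 12 control signals had a median of 16425 and its 12 signals at 1000 ppm one of 15814. Ggps1, the geranylgeranyl diphosphate synthase, had 0.07 ± 0.09. The group median at 1000 ppm was 0.07.

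Of the 12 enzymes from squalene to cholesterol, 4 rose at 1000 ppm and 3 at 500 ppm over the 4 days, and none fell, beside 7.11% of all probesets higher at 1000 ppm and 4.64% at 500 ppm. Msmo1, the sterol C4-methyl oxidase (probeset 1368275_at), gave signals of 6636, 6176 and 4584 in the day 1 controls and 7867, 6553 and 6741 at 1000 ppm. On day 7 the controls gave 4732, 5198 and 3731 and the 1000 ppm rats 6121, 8003 and 6618. On days 3 and 14 the controls ran from 4238 to 6534 and from 4582 to 6949, and the 1000 ppm rats from 5929.8 to 8491 and from 6992 to 7862. All 3 rats at 1000 ppm were thus above all controls of their day on days 7 and 14, while the groups overlapped on days 1 and 3. The rise was 1.36-fold (log2 0.45 ± 0.11, adjusted p = 0.00308). At 500 ppm it was 0.36 ± 0.11 (adjusted p = 0.025), with 12 signals from 5269.9 to 9174 (median 6492). That call was lost with the array run as a block (0.32, adjusted p = 0.0635) and when any 1 of 7 arrays was left out: replicate 3 of the controls on days 1, 7 and 14, replicate 2 of the controls on day 3, replicate 2 at 500 ppm on days 1 and 7, and replicate 1 at 500 ppm on day 14. The changes without them ran from 0.31 to 0.33 (adjusted p from 0.0547 to 0.0598).

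Sc5d, the lathosterol desaturase that makes 7-dehydrocholesterol (probeset 1387926_at), had the smallest adjusted p of the set at 1000 ppm. Control signals were 7561, 7281 and 6175 on day 1 and 8719, 7000.1 and 7789.6 on day 3, against 10382, 8187 and 8465 and then 9722, 10624 and 12239 at 1000 ppm. On day 7 controls gave 7175, 7917 and 8721 and 1000 ppm rats 9098, 10426 and 9178, and on day 14 controls gave 8030.3, 7938 and 7831 and 1000 ppm rats 9438, 9700.0 and 8966. On each of the 4 days every 1000 ppm rat lay above every control of its day. At 500 ppm the 12 signals ran from 7987 to 10290.0 (median 9186), and they cleared the controls on days 1 and 14. The rise was 1.26-fold at 1000 ppm (log2 0.34 ± 0.06, adjusted p = 0.000191) and 0.27 ± 0.06 at 500 ppm (adjusted p = 0.00444). Within each of the 6 array runs the 1000 ppm arrays had a higher mean than the controls of that run, by 0.09 to 0.59 with the days mixed. The same held for Msmo1 (0.15 to 0.78), Dhcr7 (0.03 to 0.51) and Fdft1 (0.04 to 0.58). In most runs the 1000 ppm arrays and the controls came from different days, so these differences mix dose with day. They use the arrays that gave the calls and are not a separate check of them.

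Dhcr7, the reductase of the last step to cholesterol (probeset 1368189_at), was the member called at 500 ppm on day 1 and one of those called at 1000 ppm on day 3. Control signals were 5171, 4982 and 4453 on day 1, and those at 1000 ppm were 6566, 6603 and 6769.9. On day 3 they were 5906, 4767 and 5489 against 6769.7, 7562 and 9186. On day 7 they were 5438, 6224 and 5009 against 6402, 7143 and 6359, and on day 14 the order turned, with 6226, 6994 and 5389 against 5961, 5329 and 6112. The 1000 ppm rats were all above their controls on days 1, 3 and 7 and overlapped them on day 14, where the log2 difference was -0.09. Over the 4 days the change was 1.22-fold at 1000 ppm (0.29 ± 0.07, adjusted p = 0.00213), and it was 0.29 ± 0.07 at 500 ppm (adjusted p = 0.00315). At 500 ppm the 12 signals ran from 5249.7 to 8427 (median 6986). The test of whether the response to 1000 ppm differs among the 4 days did not pass for Dhcr7 (adjusted p = 0.209 in limma), so the days are not shown to differ.

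Fdft1, squalene synthase, stood at the threshold. Its signal ran from 3671 to 5557 (median 4179) in controls and from 4627 to 6665 (median 5281) at 1000 ppm, and the groups overlapped on each day. The log2 fold change was 0.23 ± 0.08 (adjusted p = 0.0499 in limma). The call was lost in 7 of 11 alternatives, with adjusted p up to 0.122, and after leaving out any of 35 of the 48 arrays, among them arrays of doses that do not enter the comparison. Its value stayed between 0.19 and 0.27 in all of these.

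The other 8 sterol enzymes, each read from its brightest probeset, were not called over the 4 days at either dose. A second probeset of Cyp51 was called higher at 1000 ppm and is given with the other probesets below. Lss, which closes the sterol ring system, had 0.19 ± 0.10 at 1000 ppm, with 12 signals from 1143 to 1796 (median 1452) in controls and from 1089 to 2260.4 (median 1729) at 1000 ppm. Lbr, the lamin B receptor with sterol C14-reductase activity, had 0.14 ± 0.12, and Tm7sf2, the other C14-reductase, had 0.09 ± 0.08. Cyp51, the lanosterol demethylase, had 0.07 ± 0.05, Sqle, squalene epoxidase, 0.04 ± 0.09, Ebp, the sterol isomerase, 0.01 ± 0.07, and the C4-demethylation partners Nsdhl and Hsd17b7 -0.04 ± 0.05 and -0.04 ± 0.10. The 19 members of the whole set that were not called at 1000 ppm had 95% intervals between -0.25 and 0.52, so a change beyond 1.43-fold up or 1.19-fold down lies outside the interval of each.

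**Figure D2:**
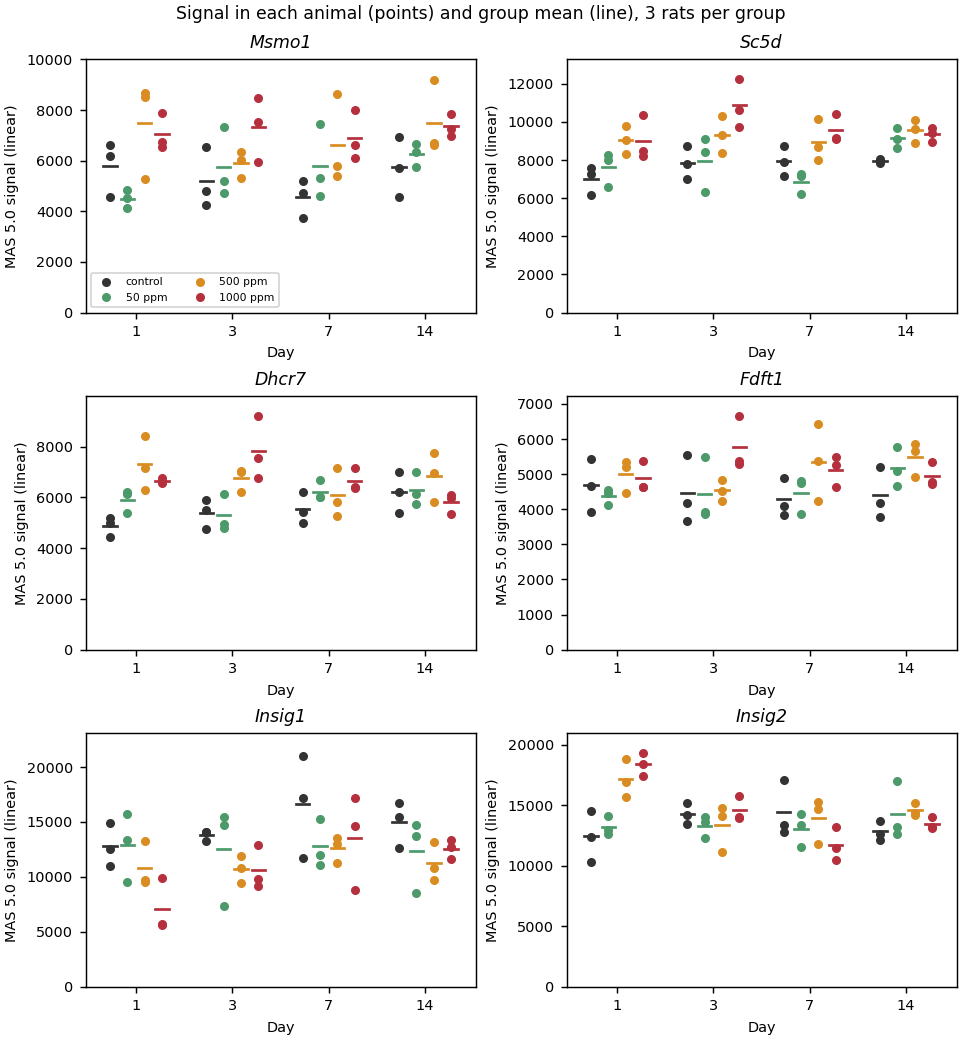
MAS 5.0 signal on a linear y axis for each rat (points) and the mean of each group of 3 (short lines), by day on the x axis and dose in colour, for Msmo1, Sc5d, Dhcr7, Fdft1, Insig1 and Insig2. Sc5d at 1000 ppm lies above its controls on all 4 days, Insig1 at 1000 ppm lies below them on days 1 and 3, and Insig2 is highest on day 1 at 500 and 1000 ppm.

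Insig1 and Insig2 encode the proteins that retain the SCAP and SREBP2 pair, and Insig1 was the only member called lower over the 4 days. Its probeset (1367894_at) gave 14950.5, 10981 and 12558 in the day 1 controls and 9896, 5677 and 5586 at 1000 ppm. On day 3 it gave 14107, 14046 and 13281 against 9804, 12939 and 9160.3. On day 7 it gave 11728, 17200.4 and 21005 against 8813, 17159.8 and 14673, and on day 14 12671, 15462 and 16759.6 against 13367, 12709 and 11591. All 1000 ppm rats lay below their controls on days 1 and 3, and the groups overlapped on the later days, with the day 7 controls spread most widely. Over the 4 days Insig1 was 1.38-fold lower at 1000 ppm (log2 -0.46 ± 0.13, adjusted p = 0.0132). At 500 ppm the change was -0.35 ± 0.13 and did not pass (adjusted p = 0.0933, and 0.0451 without replicate 1 of the day 7 controls), and at 50 ppm it was -0.22 ± 0.13.

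For Insig1 the call at 1000 ppm held in each of 11 alternatives (adjusted p from 0.00649 to 0.0243) and with any 1 array left out. Within the array runs, with the days mixed, the 1000 ppm arrays had the lower mean in 4 of 6 runs and the higher in 2, and the difference ran from -1.32 to 0.18. The runs hold 1 to 3 arrays at 1000 ppm and 2 of controls, in most runs from different days, so these differences mix dose with day. With the run as a fixed block the change was -0.43 ± 0.13 (adjusted p = 0.0243). On day 1 alone the change was -0.91 ± 0.26 (adjusted p = 0.0523). Of the 24 members Insig1 had the widest spread among rats of one group, with a pooled SD of 0.33 on the log2 scale, where the median member had 0.21.

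Insig2 (probeset 1393690_at) had signals of 14558, 12391 and 10332 in the day 1 controls, 16951, 18823 and 15662 at 500 ppm and 18401, 17448 and 19327 at 1000 ppm. All rats of both doses were above the controls on day 1. From day 3 on the groups at 1000 ppm overlapped their controls, and the log2 changes on days 3, 7 and 14 were 0.03, -0.29 and 0.07 (SE 0.13). On day 1 the change was 0.58 ± 0.13 at 1000 ppm (adjusted p = 0.0101) and 0.47 ± 0.13 at 500 ppm (adjusted p = 0.0711). The test for a different response to 1000 ppm among the 4 days gave an adjusted p of 0.0703 in limma, and over its 11 alternatives the value ran from 0.0241 to 0.754. The day 1 call was lost with the run as a fixed block (0.79 ± 0.27, adjusted p = 0.415), without replicate 3 of the controls (0.45, adjusted p = 0.105) and without replicate 3 at 1000 ppm (0.54, adjusted p = 0.0531). The day 1 controls and the 1000 ppm arrays of day 1 shared no run, so the block rests on arrays of other groups.

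Srebf2, which encodes SREBP2, and Scap were not called in any comparison of dose. Over the 4 days at 1000 ppm Srebf2 had -0.04 ± 0.09, with signals from 517 to 957 (median 721) in controls and from 498 to 847 (median 694) at 1000 ppm. Its day 1 changes were -0.24, -0.42 and -0.39 at 50, 500 and 1000 ppm and those of day 7 were 0.36, 0.35 and -0.06, values that share the controls of each day. Scap had -0.16 ± 0.06 at 500 ppm (adjusted p = 0.109) and -0.09 ± 0.06 at 1000 ppm. These probesets measure the transcripts, and not the cleavage by which SREBP2 is activated.

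On single days few members were called, as few probesets were overall. At 1000 ppm the members called were 1 of 26 on day 1 (Insig2), 2 of 25 on day 3 (Sc5d and Dhcr7), 0 of 25 on day 7 and 0 of 24 on day 14, beside 2.46%, 4.01%, 1.86% and 3.45% of all probesets in limma. At an unadjusted p under 0.05 there were 5, 7, 4 and 1. At 500 ppm 1 of 25 was called on day 1 (Dhcr7) and 0 on days 3, 7 and 14, beside 0.842%, 1.16%, 3.5% and 1.51% of all probesets, with 7, 2, 3 and 2 at an unadjusted p under 0.05. At 50 ppm 0 were called on any day in limma, beside 0.0142%, 0.102%, 3.66% and 0.112%, with 1, 1, 4 and 0 at an unadjusted p under 0.05. Whether the response changed from day to day was tested on its own. This test called 0 of 24 members at 50, 500 and 1000 ppm in limma, beside 2.86%, 0.444% and 0.331% of all probesets, with 0, 2 and 3 at an unadjusted p under 0.05. In untreated liver 0 of 25 members differed among the days in limma, beside 0.133% of all probesets, with 0 at an unadjusted p under 0.05.

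On day 3 at 1000 ppm Sc5d rose by 0.47 ± 0.12 (adjusted p = 0.0232) and Dhcr7 by 0.54 ± 0.13 (adjusted p = 0.0127). With the run as a fixed block Sc5d had 0.40 (adjusted p = 0.208) and Dhcr7 0.61 (adjusted p = 0.0356). Without replicate 2 of the controls the values were 0.39 and 0.45 (adjusted p = 0.148 and 0.104), and without replicate 3 at 1000 ppm 0.38 and 0.41 (adjusted p = 0.167 and 0.143). Sc5d also lost its call without replicate 3 of the controls (0.47, adjusted p = 0.0664) and with arrays placed by title (0.47, adjusted p = 0.0568). On day 1 at 500 ppm Dhcr7 rose by 0.58 ± 0.13 (adjusted p = 0.0225), which was 0.60, 0.51, 0.47 and 0.59 without replicate 2 or 3 of the controls or replicate 2 or 3 at 500 ppm (adjusted p = 0.0568, 0.123, 0.163 and 0.0674). A fixed block for the run gave 0.86 (adjusted p = 0.0931), and the rise was 0.50 with arrays placed by title (adjusted p = 0.126) and 0.59 without the 7 arrays (adjusted p = 0.0799).

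**Figure D3:**
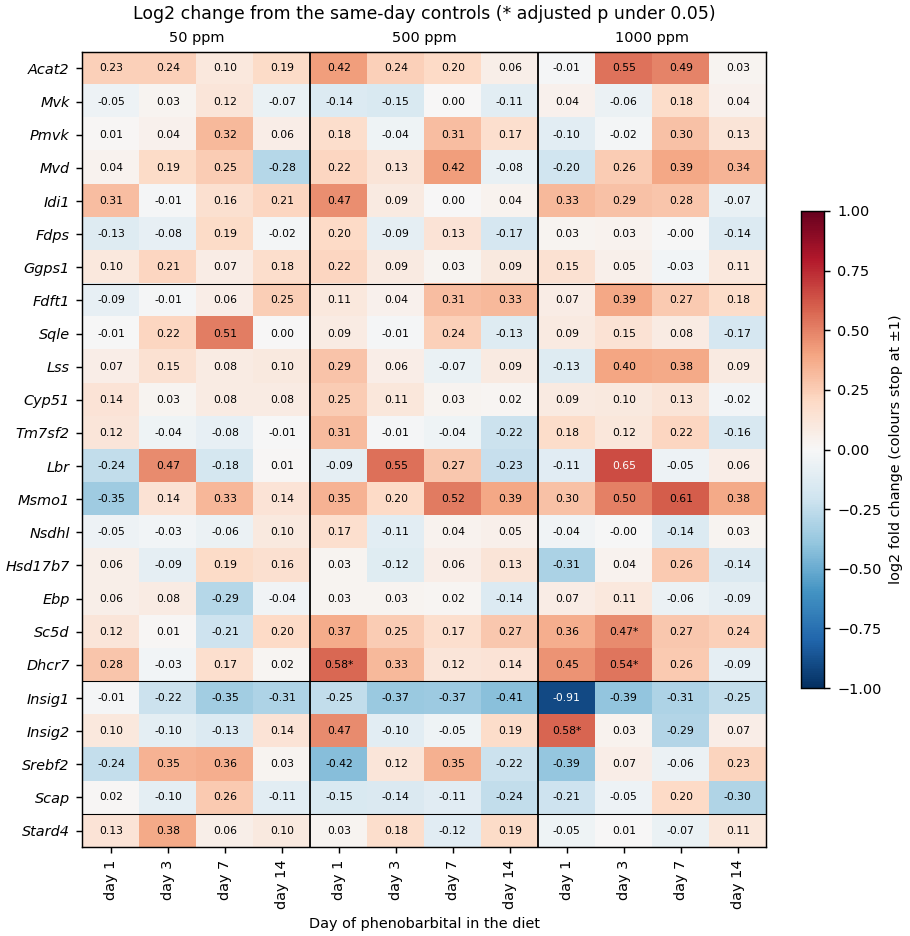
Log2 fold change of each of the 24 members (y axis, ordered along the pathway, groups parted by lines) against the controls of the same day, for 50, 500 and 1000 ppm on days 1, 3, 7 and 14 (x axis), with 3 rats per group; red is higher, blue is lower, and an asterisk marks an adjusted p under 0.05 in limma. The 4 asterisks are Dhcr7 at 500 ppm on day 1, Insig2 at 1000 ppm on day 1, and Sc5d and Dhcr7 at 1000 ppm on day 3, and columns of one day share their controls.

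Lbr had its highest values on day 3 at each dose. They were 0.47, 0.55 and 0.65 at 50, 500 and 1000 ppm (SE 0.24, adjusted p = 0.433, 0.329 and 0.137), all against the same 3 control rats, and on day 14 it had 0.01, -0.23 and 0.06. Acat2 had 0.55 on day 3 and 0.49 on day 7 at 1000 ppm, with -0.01 on day 1 and 0.03 on day 14. Neither gene was called on any day.

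Stard4, a carrier of cholesterol between membranes, had 0.00 ± 0.09 at 1000 ppm over the 4 days, with an interval from -0.18 to 0.18. Abcg5 and Abcg8 together encode the transporter that moves sterols into bile, and they lie head to head, so that their promoter windows are largely the same stretch of chromosome 6. The deposited table listed Abcg5 in 12 of 12 controls, 10 rats at 50 ppm, 7 at 500 ppm and 8 at 1000 ppm, and where it was listed its signal ran from 89.2 to 394 (median 241) in controls and from 57.0 to 357 (median 138) at 1000 ppm. On day 1 it was 249.8, 394 and 363 in controls and 211, 340.0 and 357 at 1000 ppm, and on day 7 it was 116, 233 and 187 in controls and 58.2 and 57.0 in the 2 rats with a value at 1000 ppm. The day 7 change of -1.57 did not pass in limma (adjusted p = 0.145). Abcg8 was listed on 4 control arrays, 4 at 50 ppm, 1 at 500 ppm and 2 at 1000 ppm. Over the 4 days neither gene could be tested, because some groups held under 2 values, and a value may be missing for reasons the files do not state.

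Several members were read by more than one probeset, which showed how far a value depends on the probes. The 26 members had 43 probesets, of which 41 passed the filter on low signals and 36 were tested at 1000 ppm over the 4 days. Of these, 8 were higher and 1 was lower, beside 7.11% and 7.01% of all probesets. Of the 12 that were not the brightest of their gene, 4 were higher. For Sc5d the probeset 1390777_at gave 0.34 ± 0.07 (adjusted p = 0.000763), beside 0.34 ± 0.06 for the brightest, while 1389111_at gave 0.08 ± 0.06 (adjusted p = 0.442). For Fdft1 the probeset that was not the brightest had 0.15 and was not called (adjusted p = 0.325). For Cyp51 the probeset 1387020_at was higher by 0.17 ± 0.06 (adjusted p = 0.0428), where the brightest, 1367979_s_at, had 0.07 ± 0.05. For Stard4 the probeset 1396521_at was higher by 0.23 ± 0.08 (adjusted p = 0.0438), where the brightest had 0.00 ± 0.09. For Insig2 the probeset 1389377_at was higher over the 4 days by 0.29 ± 0.09 (adjusted p = 0.019) and on day 1 by 0.63 ± 0.17 (adjusted p = 0.0425), where the brightest had 0.10 ± 0.06 over the 4 days and 0.58 ± 0.13 on day 1. On days 3, 7 and 14 this second probeset of Insig2 had 0.42, 0.11 and 0.01. Which transcripts each probeset reads is not given in the table used here.

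**Figure D4:**
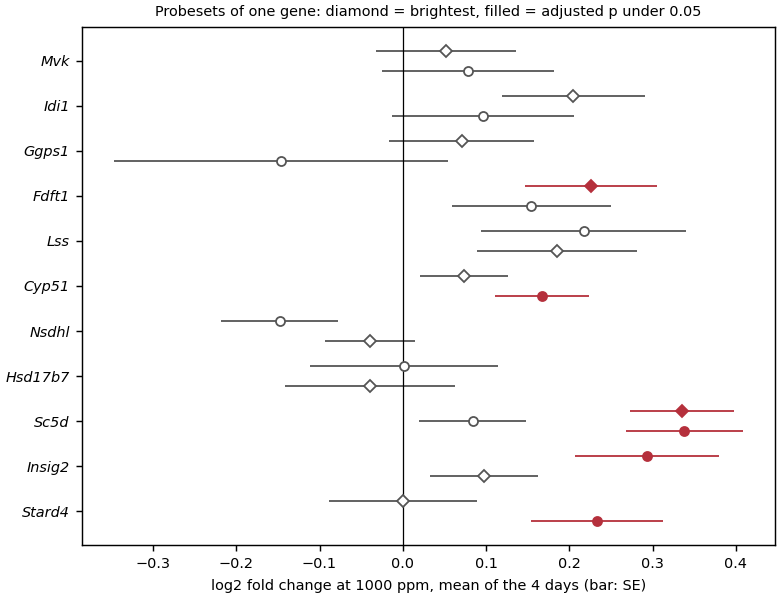
Log2 fold change at 1000 ppm over the 4 days (x axis, bars are SE, 12 rats against 12) for each tested probeset of the 11 members with more than one tested; diamonds are the brightest probeset of a gene and filled red marks are called. The bars of Mvk, Idi1, Lss and Hsd17b7 overlap within each gene, while the probesets of Fdft1, Sc5d, Cyp51, Insig2 and Stard4 differ in whether they were called.

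Rats of one group often stood apart over many members at once. Over the 24 members listed on all arrays, one rat held the highest signal of its group for at least 15 members in 7 of the 16 groups. In the day 1 controls one rat was highest for 19 members, and in the 50 ppm group of day 3 one rat also was highest for 19. At 500 ppm on day 14 one rat was lowest for 21 of 24. Members are therefore not independent of each other within a rat, and a count of members is not a count of replicates. Each rat gave 1 array. The day 1 control and the 500 ppm rat of day 14 named here were each alone of their group in their run. Rat, array and run cannot be told apart there, and the other probesets of these arrays were not compared in this way. The pooled SD within groups ran from 0.12 for Cyp51 to 0.33 for Insig1 on the log2 scale.

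Outside the set, 3 lists of neighbouring sterol genes were read in the same fit. Of 6 other genes of sterol regulation tested at 1000 ppm over the 4 days, 1 was higher and 0 were lower, where 7.11% and 7.01% of all probesets were. It was Rnf139, a ubiquitin ligase of the endoplasmic reticulum known to act on this pathway, at 0.16 ± 0.06 (adjusted p = 0.0444), and Nr1h3 and Nr1h2, the LXR receptors that respond to oxysterols, and Mylip were not called. Of 8 genes of sterol traffic tested, 3 were lower and 0 higher (7.01% and 7.11% of all probesets), with a median of -0.09. Scarb1, the receptor that takes up cholesterol from high density lipoprotein, fell by 0.33 ± 0.06 (adjusted p = 0.000238), Stard5, a sterol carrier, by 0.23 ± 0.08 (adjusted p = 0.0473) and Lcat, which esterifies cholesterol in plasma, by 0.14 ± 0.05 (adjusted p = 0.0499). At 500 ppm 2 of 9 were lower (3.99% of all probesets), Scarb1 by 0.32 ± 0.06 (adjusted p = 0.000839) and Abca1, the lipid exporter to apolipoprotein A-I, by 0.15 ± 0.04 (adjusted p = 0.0295). Of 8 genes of the isoprenoid branches and of acetyl-CoA supply, such as Acly and Fnta, 0 were called over the 4 days at either dose in limma, beside 8.64% of all probesets at 500 ppm and 14.1% at 1000 ppm (0 at 500 ppm and 1 at 1000 ppm had an unadjusted p under 0.05). On single days this list had 1 gene higher at 500 ppm on day 7 and 1 at 1000 ppm on day 14, beside 2.04% and 2.08% of all probesets. The day difference test at 500 ppm called 1 of its genes, beside 0.444%. The sterol traffic list had 1 lower at 1000 ppm on day 14 (1.38% of all probesets). The sterol regulation list had 1 lower at 50 ppm on day 7 (3.02%). Calls in these 3 lists were not checked under the alternatives or in other probesets of the same gene. Those of Rnf139, Stard5 and Lcat stood near the threshold.

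The tissue carried hepatocyte RNA in all groups: 7 hepatocyte markers were listed on every array, their summed signal ran from 271038 to 443567 in controls and from 284301 to 409298 at 1000 ppm, and 0 of 7 were called in limma (1 at an unadjusted p under 0.05). Of 7 Kupffer cell and macrophage markers 2 were lower at 1000 ppm, beside 7.01% of all probesets (Csf1r by 0.23 ± 0.07 and C1qa by 0.21 ± 0.06), all 7 had values below 0, 6 of them at an unadjusted p under 0.05, and their summed signal ran from 12317.8 to 20394.9 in controls and from 11487 to 17379.3 at 1000 ppm. Of 4 bile duct markers only Epcam could be tested, and it was higher by 0.53 ± 0.10, beside 7.11% of all probesets. At 500 ppm over the 4 days Krt19 could be tested too. There Epcam was higher by 0.38, beside 4.64% of all probesets, and Krt19 had 0.02 and was not called. Of 4 stellate cell markers tested, 0 were called in limma, but all 4 had values below 0 (median -0.19), 3 of them at an unadjusted p under 0.05, and the summed signal of the 5 markers with a probeset, 3 of them listed on all arrays, ran from 7163 to 10465 in controls and from 6492 to 9551 at 1000 ppm. Endothelial and lymphocyte lists had 0 called of 4 and 1 in limma, and none of these 5 had an unadjusted p under 0.05. These marker calls are at 1000 ppm over the 4 days. On day 1 at 1000 ppm 1 of 4 endothelial markers was higher in limma, beside 1.69% of all probesets. Their median there was 0.51, and 3 had an unadjusted p under 0.05. At 500 ppm on day 7 all 7 hepatocyte markers had values above 0, with a median of 0.41 beside 0.006 for all probesets. All 7 had an unadjusted p under 0.05 and 1 was called higher in limma, beside 2.04% of all probesets. On days 1, 3 and 14 at 500 ppm the hepatocyte medians were 0.19, -0.12 and -0.08. In untreated liver 2 of 4 endothelial markers differed among the days in limma, beside 0.133% of all probesets. The part of these shifts in the changes of the sterol genes was not tested.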

How the data were processed

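The authors combined the probe intensities of the 48 arrays into MAS5 signals, 1 linear intensity per probeset, and scaled each array to a mean of 500. A second deposited table, of ratios for part of the probesets, was not used. Arrays listed 13506 to 16378 signals, and groups of one day differed. The 500 ppm arrays of day 7 listed 13506 to 14738, against 14794 to 16095 in controls. Those at 1000 ppm on day 14 listed 13793 to 14564, against 15253 to 16129. At 500 ppm on day 3 they listed more, 15655 to 16378 against 15282 to 15653. Unlisted cells, whose meaning is not stated, were left missing. Arrays were grouped by animal number. The fit kept 18073 of 31099 probesets (3 or more arrays with a signal of 90 or above), and a comparison needed 2 values in each group it used. Group means of log2 signals were compared with moderated variances (limma 3.58.1, R 4.3.3). The least squares step was adapted to missing values, compared with limma on complete data and tested on simulated data. P-values are two-sided, with Benjamini-Hochberg adjustment within each comparison. A gene was read from the brightest probeset annotated to it alone. Alternatives were other normalizations and filters, a pseudocount of 50, the run (arrays with the same date-like prefix in the description) or title number as a block, title placing, averaged probesets, the methods' 2-way analysis of variance, and each array left out. Every member with a probeset is named. Values of single rats are given for the 4 with the largest change at 1000 ppm over the 4 days, as none reached 0.5 on the log2 scale. Those of Insig2 and Abcg5 were added after they were seen. Of the other lists at most 4 called genes each are named. The members and lists were chosen with earlier results of these data known. With 3 rats in a group, small changes on single days can be missed.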

Additional observations from a re-analysis of the deposited data

How the results depend on the processing

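Of 220 counts of called members under 12 alternatives, 201 stayed within 1.5 times the main count and 19 did not. Many of the main counts were 0, and those stayed only where the alternative also gave 0. Msmo1, Sc5d, Dhcr7 and Insig1 kept their calls at 1000 ppm over the 4 days in all 11 refits and with any of the 48 arrays left out. The title numbers did not pair the animals (median residual correlation 0.0244 for equal numbers, -0.0163 for others). With the replicate block 4 members passed at 1000 ppm, 3 at 500 ppm and 0 at 50 ppm over the 4 days, the lost one being Fdft1.

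At 500 ppm on day 1 the count of 1 was 0 with the run as a fixed block, with title placing and without the 7 arrays, and 2 with only probesets listed on all arrays. At 1000 ppm on day 1 the count of 1 was 0 with the run as a fixed block, 2 with it as a random block, without the 7 arrays and with the pseudocount, and 3 with quantile normalization, only probesets listed on all arrays, or averaged probesets. At 1000 ppm on day 3 the count of 2 was 1 with title placing and with averaged probesets. At 1000 ppm on day 14 quantile normalization gave 1, Scap, and it lowered the median of all probesets there to -0.18. The test of a day difference at 1000 ppm gave 1, Insig2, without the 7 arrays, with quantile normalization and with only probesets listed on all arrays. The methods' 2-way analysis of variance tested 3 members for a dose effect, not for one dose, and called 2, Msmo1 and Insig1, a count set beside 0 at 50 ppm and 5 at 1000 ppm. The cause of these shifts was not tested. With 1 array left out, the counts ran from 2 to 4 at 500 ppm and from 4 to 5 at 1000 ppm over the 4 days, from 0 to 2 on day 1 at 500 ppm and on days 1 and 3 at 1000 ppm, and from 0 to 1 for the day difference at 1000 ppm. Leaving out the 7 arrays gave no value for 50 ppm over the 4 days, on day 7 or for its day difference.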
